A study of Mus musculus with 9 samples.

Results

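The interferon signalling and target genes described here are 9 genes, namely the transcription factors Stat2, Irf1 and Irf7 and the interferon-induced genes Isg15, Mx1, Ifit1, Ifit2, Ifit3 and Ifi35. They were chosen by name, and every probe set that the platform annotation assigns to exactly 1 of these symbols was read. This gave 12 of the 36701 probe sets on the arrays, and 9 of the 15964 genes that have a probe set with a single symbol. RNA came from GFP-positive cells sorted from the pooled retinas of pups at postnatal day 8. The pups were homozygous for the Tie2-GFP transgene and had received intraperitoneal injections of APB5, a neutralizing antibody against PDGFRb, from day 0 to day 7. Tie2, whose promoter drives the GFP, is an endothelial receptor that some blood cells also express. All 9 arrays belong to this condition, with 3 replicates on each of the Affymetrix MG-U74v2 designs A, B and C, so the arrays hold no untreated animals, and no effect of the antibody or of pericyte loss can be read from them. Retinas were dissociated with papain over several incubations at body temperature before the sort, and no label states that replicates are separate pools of animals, so the spread between arrays may be technical.

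Interferons are cytokines that signal through cell surface receptors and Janus kinases. Type I interferons activate a complex with Stat2 and Irf9 that binds the interferon-stimulated response element in target promoters, whereas interferon gamma acts through the gamma-activated site. Targets include antiviral effectors and further transcription factors, among them Irf7, which amplifies the production of type I interferon. In vessels, endothelial cells respond to both kinds of interferon and can raise antigen presentation and chemokine genes.

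The promoters of these genes differ in which of the response elements they hold a letter match to. RefSeq promoters of build GRCm38.p6, from 250 bases before to 50 bases after the transcription start, were found for 8 of the 9 genes, all but Mx1. Each was searched on both strands for GAAA and GAAA with any 2 bases between them, a form of the interferon-stimulated response element, and for TTC and GAA with any 3 bases between them, a form of the gamma-activated site that reads the same on both strands. The stretches below are those upstream parts that hold a match in Isg15, Ifit1, Ifit3, Stat2 and Irf1, each printed 5′ to 3′ on the strand of the gene with the matched bases in capitals. Isg15 lies on the minus strand, at chr4:156200845-156200926. Ifit1 lies on the plus strand, at chr19:34640755-34640843, as do Ifit3 at chr19:34583343-34583446, Stat2 at chr10:128270248-128270315 and Irf1 at chr11:53769894-53769962.
Isg15: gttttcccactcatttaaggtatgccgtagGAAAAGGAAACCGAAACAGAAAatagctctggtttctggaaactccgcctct
Ifit1: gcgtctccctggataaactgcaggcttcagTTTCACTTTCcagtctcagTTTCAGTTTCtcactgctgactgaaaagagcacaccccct
Ifit3: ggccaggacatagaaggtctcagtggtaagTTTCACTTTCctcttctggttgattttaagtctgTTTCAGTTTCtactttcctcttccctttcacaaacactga
Stat2: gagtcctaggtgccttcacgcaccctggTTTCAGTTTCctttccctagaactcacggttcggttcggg
Irf1: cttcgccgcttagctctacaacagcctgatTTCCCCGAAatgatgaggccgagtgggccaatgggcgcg

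The interferon-stimulated response element was matched in 4 of the 8 genes, or 50%. Over all genes of the table, 3.99% (1079 of 27025) held a match in at least 1 of their promoters. In Isg15, 3 overlapping matches on the gene's own strand spanned the bases from -78 to -57 before the start. Ifit1 and Ifit3 held 2 matches each, on the opposite strand, and the matched letters were the same in both genes. They lay from -104 to -95 and from -85 to -76 in Ifit1, and from -156 to -147 and from -122 to -113 in Ifit3. Stat2 held 1 match, from -222 to -213. The gamma-activated site was matched in 3 of the 8 genes, Irf1, Ifit2 and Ifi35, against 9.55% of all genes. In Irf1 it lay from -90 to -82, at 1 of the 2 annotated starts. In Ifit2 it lay from -241 to -233, also at 1 of 2 starts, and in Ifi35 from 8 to 16 after the start. The Irf7 promoter held neither set of letters in this window. A match is a stretch of letters and does not show that a factor bound there. The lack of a match does not show that a gene lacks the element. Other forms of the elements and sites outside the window were not searched.

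**Figure D1:**
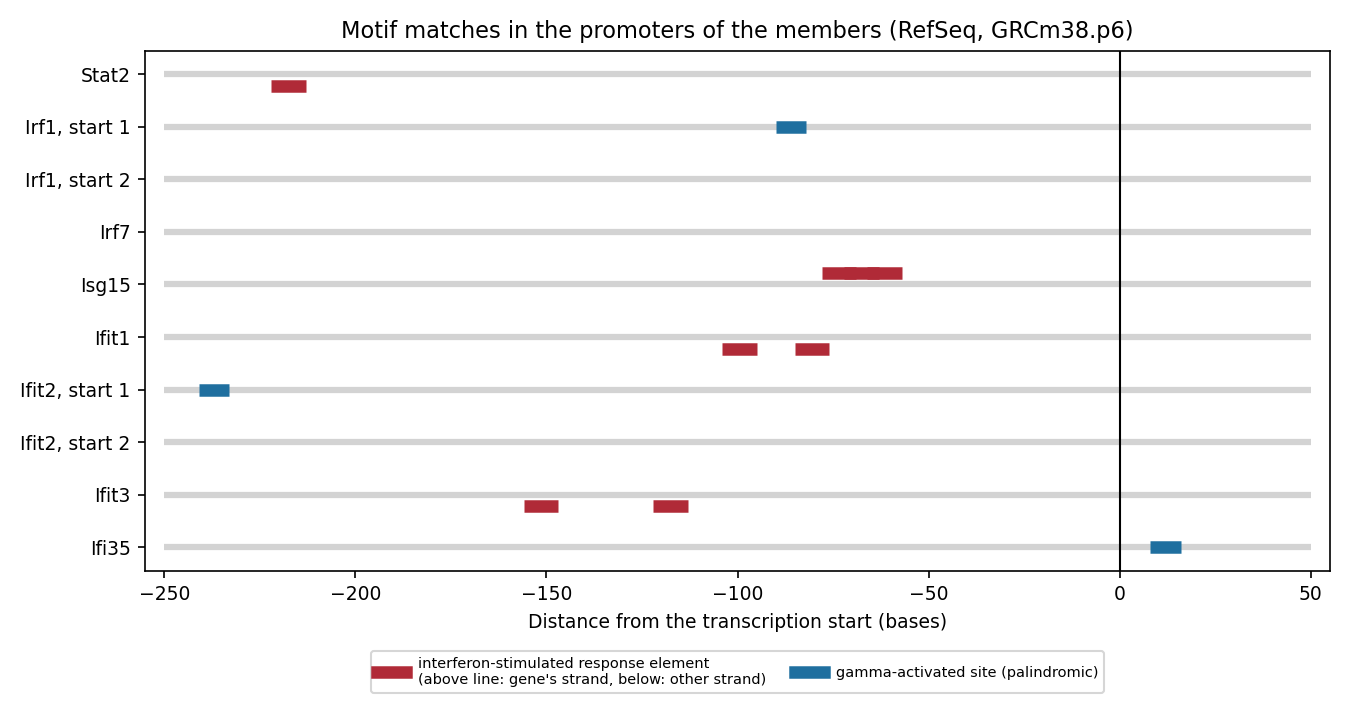
Positions of motif matches in the RefSeq promoters of 8 of the genes, with the distance from the transcription start in bases on the horizontal axis and 1 grey line per annotated start. Red bars are matches to the interferon-stimulated response element, drawn above the line on the gene's strand and below it on the other strand, and blue bars are matches to the gamma-activated site. Isg15, Ifit1, Ifit3 and Stat2 carry red bars, and Irf1, Ifit2 and Ifi35 carry blue ones.

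The arrays carried a strong endothelial signal. The position of a gene is given throughout as its percentile among all probe sets of the array, from 0 to 100, averaged over the 3 arrays and, within a design, over the gene's probe sets. All 16 measured endothelial markers had at least 1 probe set above the floor, against 72.4% of all genes. The floor was set at the 40th percentile of each array and had to be exceeded on all 3 arrays. The median position of that list was 92.7, beside 52.2 over all genes. Its lowest value was Sox18 on design C at 9.72 ± 3.6, against 87.7 ± 1.5 on design A (SD, n = 3 each). Its highest was Flt1 on design C at 99.9. Markers of other cells gave 9 of 17 genes above the floor for macrophages and microglia (median 42.7), 5 of 10 for lymphocytes and plasmacytoid dendritic cells (33.5), 8 of 10 for mural cells (39.6) and 11 of 14 for retinal neurons and glia (42.5). Members of these lists varied widely. Among microglial genes, the receptor P2ry12 stood at 2.12 ± 0.32 on design C and the receptor Csf1r at 62.8 ± 3.2 on design A. Laptm5, a lysosomal gene of blood cells, stood at 98.8 ± 0.88 on design C and 79.9 ± 8.4 on design A (SD, n = 3 each). In the list with plasmacytoid dendritic cells, which are strong producers of type I interferon, Siglech stood at 15.0 ± 2.5 on design B. Other genes of that list stood higher, with Flt3 at 72.6 ± 4.7 on design A and Bst2 at 47.7 ± 1.2 on design B. Both had at least 1 probe set above the floor. The lowest value of that list was 6.73 ± 0.69, for Cd3e (design B). Its highest was 94.5 ± 1.2, for the transcription factor gene Tcf4 (design A). The Tcf4 probe sets of design B averaged only 68.1 ± 3.0 (SD, n = 3 each). Which cells gave the Tcf4 signal was not tested. The share of other cells in the sort was not measured, and their part in the interferon gene signals was not tested. In bulk RNA, fewer cells that express a gene and less RNA per cell cannot be told apart.

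Of the interferon genes, the transcription factor Irf1 stood high on the arrays, Ifi35 and both probe sets of Stat2 in the upper part, Isg15 in the middle, Irf7 on either side of it, and the Ifit genes and Mx1 low. The floor was exceeded on all 3 arrays by 6 of the 12 probe sets, against 56.5% of all probe sets on the 3 designs. By gene, 5 of 9 had at least 1 such probe set, against 72.4% of all genes with a single symbol. On design A, 3 of 9 probe sets exceeded the floor, against 56.6% of that design. On design B both did, against 56.4%, and on design C the only one did, against 56.4%. The median position over the 10 gene values, in which Irf7 counts on designs A and C, was 44.4, beside 52.2 over all genes. Probe sets differ in how well they hybridise and the designs are separate tables, so the order of these genes is an order of signals and not of transcript amounts. A low signal leaves the presence of the transcript undetermined.

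**Figure D2:**
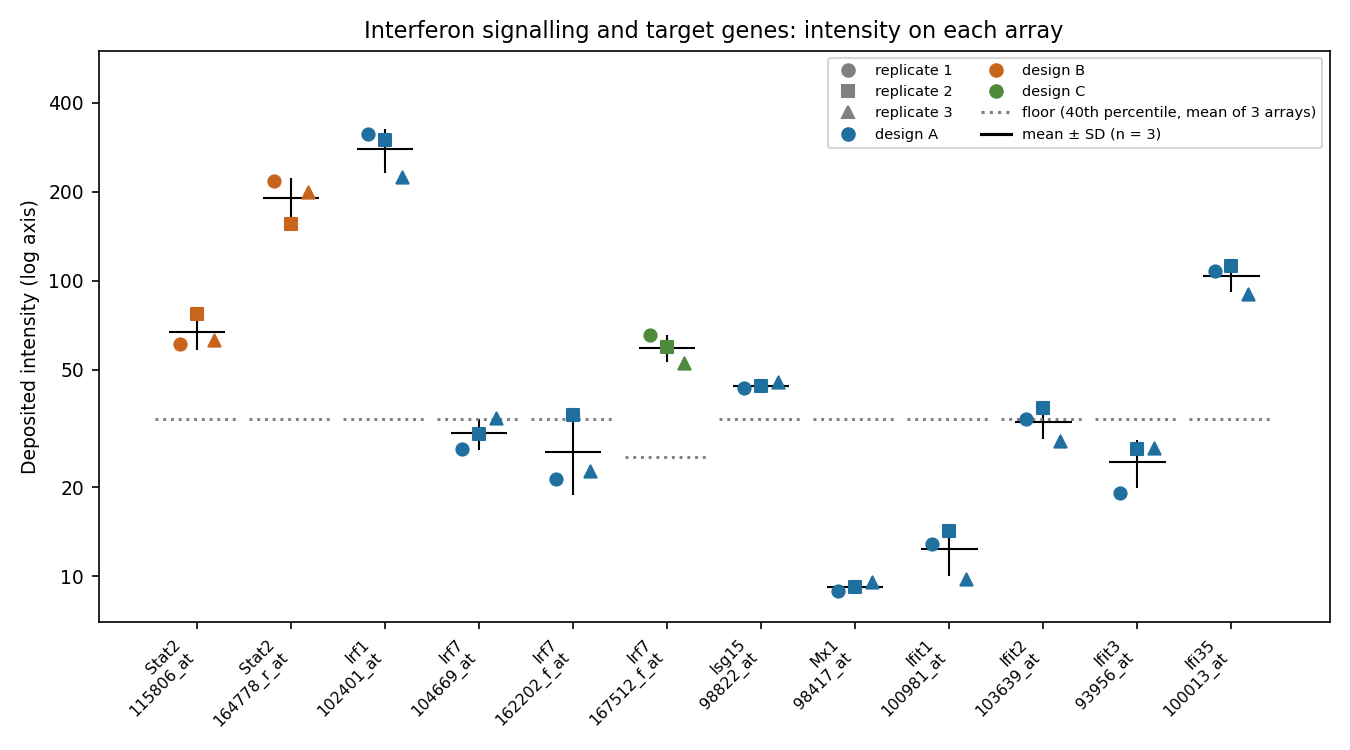
Deposited intensity on a log axis for each of the 12 probe sets on its 3 arrays, with colour for the array design and symbol for the replicate. Black bars give the mean and SD of 3 arrays and dotted lines the floor of the design. The Irf1, Stat2 and Ifi35 probe sets lie above the floor on every array, and those of Mx1, Ifit1 and Ifit3 lie below it on every array.

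Among the signalling factors, Irf1 had the highest signal. Irf1 encodes a transcription factor that interferon gamma and inflammatory cytokines induce. Its probe set on design A read 313, 299 and 224 in replicates 1, 2 and 3, a mean intensity of 279 ± 47.7 (SD, n = 3). All 3 arrays were far above their floors, which lay between 33.5 and 34.9, and replicate 3 was the lowest. The position was 90.7 ± 1.4, and the log2 intensity lay 2.65 above the median of the array.

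Stat2, the subunit that brings the transactivation domain to the type I interferon complex, was represented on design B by a pair of probe sets that differed in level. The plain probe set read 60.9, 77.0 and 62.9 in replicates 1, 2 and 3, at position 65.2 ± 4.3 (SD, n = 3). The other, whose name marks it as designed under reduced rules, read 217, 156 and 199.7, at position 89.3 ± 2.2. Every reading of the second exceeded every reading of the first, so the gene's mean position of 77.3 ± 1.0 averages unlike values. Replicate 2 was the highest array for the plain probe set and the lowest for the other.

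Irf7 gave readings on both sides of the floor. The plain probe set on design A read 26.9, 30.3 and 34.2, at position 35.2 ± 3.9 (SD, n = 3), and was below the floor on all 3 arrays. A second one on design A, whose name marks it as shared within a sequence family, read 21.4, 35.1 and 22.8, at position 29.1 ± 10.3, and passed the floor in replicate 2 alone. The remaining one, on design C and also marked as shared, read 65.3, 59.7 and 52.8, at position 71.8 ± 3.0, above floors of 25.3 to 25.4 on that design. The call of Irf7 above the floor therefore rests on 1 of 3 probe sets.

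Among the targets, Ifi35 had the highest position. Ifi35 encodes a leucine zipper protein that pairs with Nmi, the product of another interferon-induced gene. It read 108, 113 and 90.1 in replicates 1, 2 and 3, with a mean intensity of 104 ± 11.9 (SD, n = 3) and a position of 75.4 ± 1.9. All 3 arrays exceeded the floor by a wide margin, and replicate 3 was the lowest, as for Irf1.

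Isg15, the ubiquitin-like protein that is conjugated to other proteins during the interferon response, lay close to the middle of the array. It read 43.4, 43.9 and 45.4, with a mean intensity of 44.2 ± 1.0 (SD, n = 3) and a position of 50.2 ± 0.65. The arrays were nearly equal, all above the floor, and the log2 intensity lay 0.01 above the median of the array.

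The Ifit genes encode proteins with tetratricopeptide repeats that bind foreign RNA or each other. They are neighbours on the mouse genome (GRCm38.p6), where the paralogs Ifit1bl1, Ifit3b and Ifit1bl2 and a pseudogene lie between Ifit3 and Ifit1, and hybridisation of related transcripts to their probe sets was not tested. Ifit2 read 34.1, 37.0 and 28.8 in replicates 1, 2 and 3, at position 38.6 ± 5.9 (SD, n = 3), and passed the floor in replicates 1 and 2 but not in 3. Ifit3 read 19.2, 27.0 and 27.1, at position 26.7 ± 6.2, below the floor on every array. Ifit1 read 12.9, 14.3 and 9.83, at position 8.98 ± 3.0, also below the floor on every array. The promoters of Ifit1 and Ifit3 printed above carry the same pair of matches, and both genes gave readings below the floor. Stat2 and Isg15 also carry matches to that element, and their probe sets were above the floor on all 3 arrays. A link between matches and signal was not tested.

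Mx1, a dynamin-like GTPase that blocks influenza viruses in mice, had the lowest position of the 9 genes. It read 8.94, 9.20 and 9.59, with a mean intensity of 9.24 ± 0.33 (SD, n = 3) and a position of 5.30 ± 0.13. The log2 intensity lay at -2.25 relative to the median of the array. RefSeq lists Mx1 in GRCm38.p6, the genome of the C57BL/6J strain, as a transcribed pseudogene. The strain of these pups is not given in the labels, and which part of the transcript the probe set reads was not examined.

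Genes typical of unrelated tissues give another scale for low readings. On design A, 45 probe sets belong to a list of genes of unrelated tissues such as liver, pancreas, testis and pituitary. The 90th percentile of that list lay at intensities of 71.0, 72.5 and 78.8 on the 3 arrays, and 29.0% of all probe sets of the design exceeded it on all of them. Irf1 and Ifi35 were the members on design A that exceeded it, 2 of 9 probe sets, and by mean position over the arrays each lay above all 45. By the same mean, Isg15 lay above 68.9% of the list, Ifit2 above 60.0%, Ifit3 above 46.7%, Ifit1 above 20% and Mx1 above 2.22%. The Irf7 probe sets of this design lay above 53.3% and 48.9%. The list is thinner on the other designs. On design C it had 13 probe sets and a threshold between 93.1 and 109, which 13.0% of all probe sets exceeded, and the Irf7 probe set there, the one above the floor, was below it on all 3 arrays. On design B it had 3 probe sets, and both Stat2 probe sets exceeded a threshold between 31.9 and 33.9 that lay below the floor and that 57.5% of all probe sets exceeded.

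Replicate spread of the interferon genes was above the median for their signal in most cases. The SD of log2 intensity over the 3 arrays had a median of 0.18 over the 12 probe sets, beside 0.13 over all probe sets of design A, 0.13 of design B and 0.14 of design C. Spread was also set beside that of probe sets within 5 percentile points of the same position. In 10 of the 12, the SD was above the median of those probe sets. The widest belonged to the shared Irf7 probe set on design A, with an SD of 0.39, which 1.37% of 1241 probe sets of like signal exceeded. The next was Ifit3, with 0.29, exceeded by 6.06% of its like. For the rest of the 10, the share of like probe sets with a larger SD ran from 14.5% (Ifit1) to 35.7% (Ifi35). Isg15 and Mx1 were the exceptions, with SDs of 0.03 and 0.05, which 93.4% and 94.4% of probe sets of like signal exceeded. On design A the lowest array was replicate 1 for 5 of the 9 probe sets and replicate 3 for 4, against 36.8% and 34.2% of all probe sets of the design. With 3 arrays per probe set, these spreads are themselves poorly determined.

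**Figure D3:**
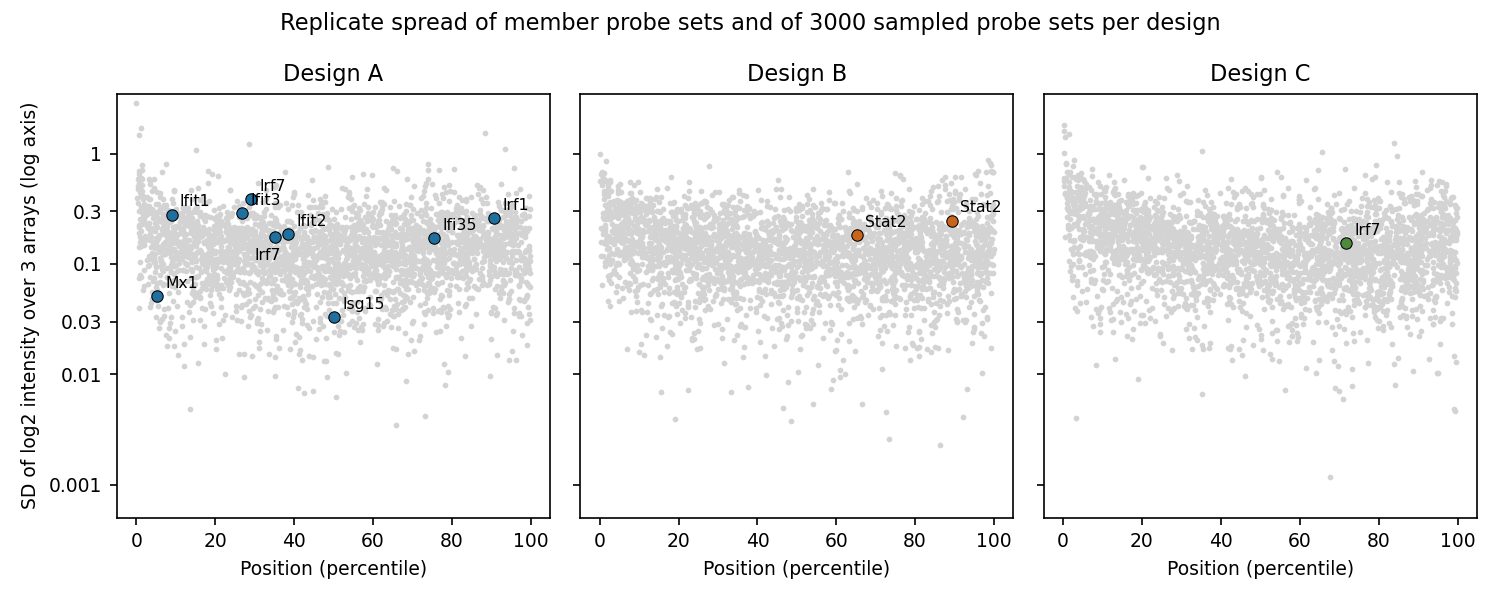
SD of log2 intensity over the 3 arrays, on a log axis, against position in percentiles, in 1 panel per design. Grey points are 3000 sampled probe sets per design and coloured points the interferon genes. Isg15 and Mx1 sit low in the cloud of design A, and the remaining members sit at or above its middle.

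The receptors of the interferons stood in the upper part of the arrays. All 5 measured interferon receptor chains exceeded the floor, against 72.4% of all genes, with a median position of 74.6, beside 52.2. Il10rb, the shared chain of the interferon lambda and interleukin 10 receptors, stood at 99.0 ± 0.20 (SD, n = 3) on design A. Ifnar1 stood at 66.4 ± 1.4 on design A, while its probe set on design C stood at 98.6 ± 0.18, and Ifnar2, its partner in the type I receptor, at 74.6 ± 1.3. The lowest values were 58.5 ± 2.5 for Ifngr2, which stood at 92.8 ± 0.71 on design B, and 60.9 ± 0.79 for Ifngr1, the ligand-binding chain of the interferon gamma receptor. The design A values of Ifnar1, Ifngr1 and Ifngr2 lay within the range of the genes of unrelated tissues on that design, which reached 71.2. Those of Il10rb and Ifnar2 lay above it.

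Of 4 measured kinases and STAT partners, 3 exceeded the floor, against 72.4% of all genes, and the median position was 75.7, beside 52.2. The kinase gene Jak1 stood at 79.9 ± 1.1 on design A, and its probe set on design C at 98.7 ± 0.21 (SD, n = 3 each). Irf9, the DNA-binding partner of Stat2, stood at 80.9 ± 1.4. Tyk2, the other kinase of the type I receptor, had positions of 62.4 ± 3.8 (design A) and 71.4 ± 3.9 (design B), and Jak2 was below the floor at 27.9 ± 3.7.

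The other interferon regulatory factors lay mostly below the middle of the arrays. Of 4 measured, 2 exceeded the floor, against 72.4% of all genes, and the median position was 31.1, beside 52.2. Irf8, which is best known from myeloid cells, was the highest at 63.0 ± 2.3 on design A (SD, n = 3). Irf3, the factor that starts interferon production downstream of nucleic acid sensors, had a mean of 32.2 ± 1.8 over its probe sets, with at least 1 above the floor. The lowest were Irf4, a lymphocyte factor, at 13.6 ± 2.7 and Irf5 at 3.68 ± 1.1 (design C) and 31.1 ± 4.4 (design A).

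Among sensors and adaptors of nucleic acid recognition, 7 of 9 measured genes exceeded the floor, against 72.4% of all genes, and the median position was 64.0, beside 52.2. The ubiquitin ligase gene Trim25 stood at 98.2 ± 0.27 on design A and the adaptor Sting1 at 96.7 ± 0.44 on design C (SD, n = 3 each). The RNA sensor gene Ifih1 stood at 21.6 ± 5.8 on design C and 44.4 ± 6.5 on design A. The kinase gene Tbk1 stood at 14.7 ± 2.8 on design C and 84.3 ± 2.0 on design A. Of 6 negative regulators, 4 exceeded the floor, against the same 72.4%, with a median of 36.0. Ptpn11, a widely expressed phosphatase, stood at 98.8 ± 0.14 on design B and 23.6 ± 1.8 on design A, and Socs3, an inhibitor of Janus kinases, at 76.9 ± 3.3 (design A) and 43.2 ± 8.2 (design B, not above the floor). Usp18, which removes Isg15 from proteins and is itself induced by interferon, stood at 7.32 ± 0.71.

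The 31 other measured interferon-induced genes covered positions from 9.27 to 92.7. Of these, 19 had a probe set above the floor, against 72.4% of all genes, and the median position was 43.4, beside 52.2. Oas3, an oligoadenylate synthetase, stood at 92.7 ± 0.78 on design C and Nmi, the partner of Ifi35, at 90.3 ± 1.1 on design A (SD, n = 3 each). The lowest were the nuclear protein gene Ifi203 at 9.27 ± 1.5 and Ifi30, a lysosomal thiol reductase, at 11.9 ± 0.21, both on design B, whereas Ifi30 stood at 58.2 ± 2.0 on design A. Promoters were found for 28 genes of this list. Of these, 16, or 57.1%, held a match to the interferon-stimulated response element, against 3.99% (1079 of 27025) of all genes.

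The class I antigen processing genes, many of which interferon gamma induces, had a median position of 74.02, beside 52.2 over all genes, with 6 of 8 measured genes above the floor, against 72.4%. B2m, the light chain of class I molecules, stood at 98.8 ± 0.19 and the immunoproteasome subunit gene Psmb8 at 86.3 ± 0.98 on design A, whereas the transactivator gene Nlrc5 stood at 5.24 ± 1.7 on design B and the peptide-loading gene Tapbp at 6.67 ± 2.8 on design C, although the mean of its 3 probe sets on design A was 72.4 ± 2.4 (SD, n = 3 each).

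Interferon genes themselves were all read on design A, where the genes of unrelated tissues ran from position 5.60 to 71.2. Of 9 measured, 5 exceeded the floor, against 72.4% of all genes, and the median position was 48.9, beside 52.2 over all genes and 29.9 over the 40 measured genes of unrelated tissues. Ifna9 was the highest at 73.3 ± 0.85, above that range, followed by Ifna5 at 63.7 ± 3.7, and Ifna11 was the lowest at 6.27 ± 1.2, with Ifng, the gene of interferon gamma, at 18.2 ± 1.7 and Ifnb1 at 23.4 ± 2.9 (SD, n = 3 each, design A). The Ifna genes are near-identical copies, so which of them a probe set read is uncertain, and a position above the floor does not show that an interferon transcript was present.

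**Figure D4:**
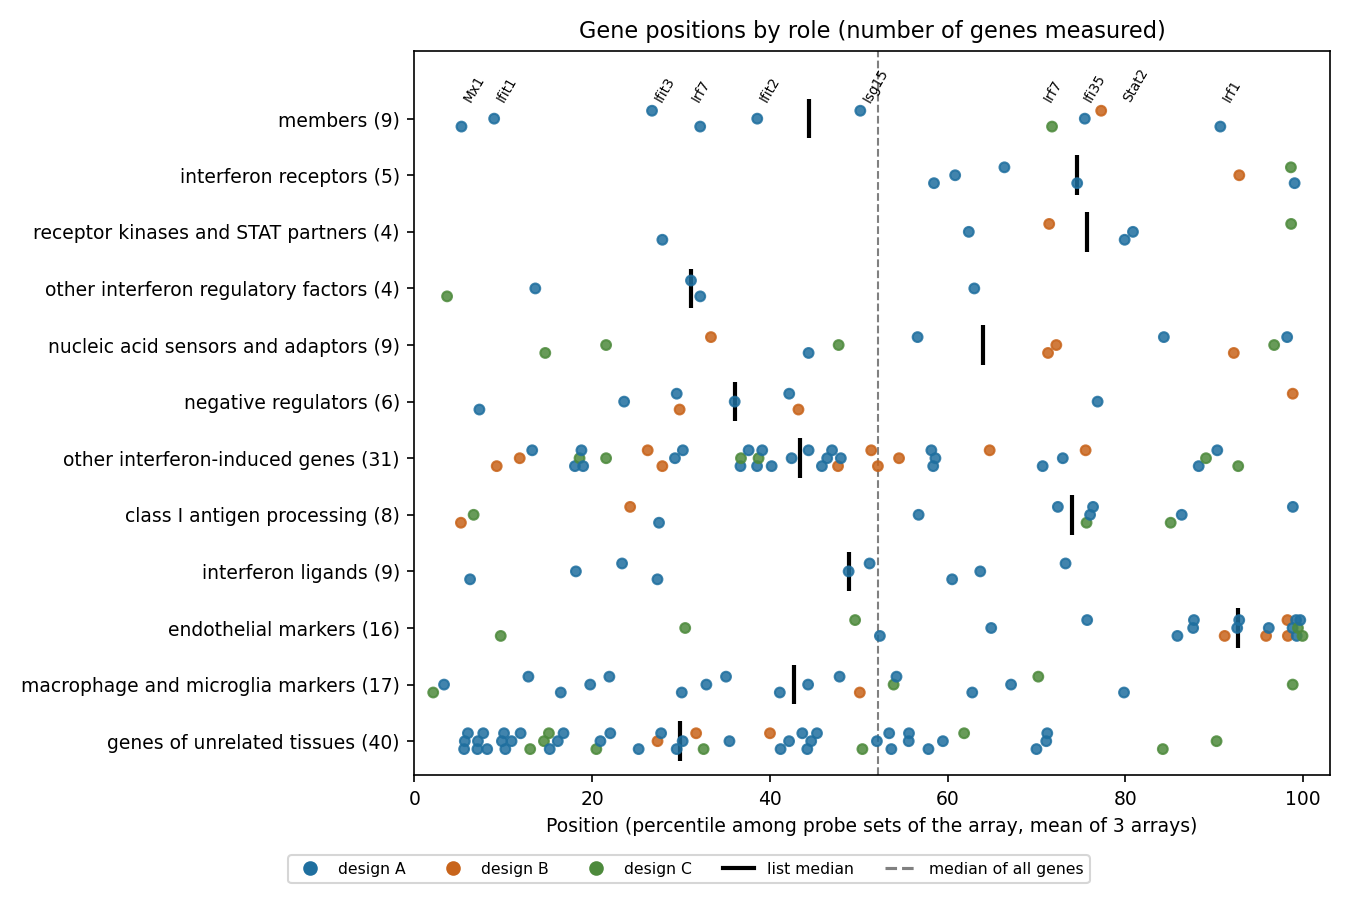
Position of each gene on each design, as a percentile averaged over 3 arrays, for the 9 interferon signalling and target genes and for lists grouped by role, with the number of measured genes in brackets. Points are coloured by design, black bars are list medians and the dashed line is the median of all genes at 52.2. The 9 genes span positions from 5.30 (Mx1) to 90.7 (Irf1), while the receptor chains all lie at 58.5 or above.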

How the data were processed

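Intensity values were deposited by the authors in 3 tables, 1 per array design, with a value for every probe set on every array. They were taken here as linear intensities. The summary method, the software and any scaling were not stated in these sources. Per the labels' protocols, the arrays were hybridised with biotin-labelled cRNA made from amplified total RNA. Before logarithms, the 7 values equal to 0 were set to the lowest positive value on the same array. Median intensities lay between 32.3 and 44.5. The number of arrays limits the precision.

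Of 36701 probe sets, 29131 had 1 gene symbol in the platform annotation, 724 had several and 6846 were unnamed here. Other lists were matched by symbol, updated through Entrez identifiers to RefSeq (GRCm38.p6). All arrays are of 1 condition, so no test was made. A planned comparison of Ifit proteins was not run. Counts and medians are given beside those of all probe sets or genes, except under alternative settings of the processing. Scripts used Python 3.11.15, pandas 2.3.3 and numpy 2.4.6, and were tested on simulated data. All 9 members are named with every probe set, and from each other interferon list the 2 highest and 2 lowest genes, plus the preset genes Irf9, Ifnar1, Ifnar2 and Jak1. A further preset gene is not reported here. Ifnb1, Siglech, Bst2, Csf1r and second-design values were chosen after their values were seen. The members and lists were chosen with earlier results of these data known.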

Additional observations from a re-analysis of the deposited data

How the results depend on the processing

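The median position of the interferon genes was 44.4, and moved to 38.6 with plain probe sets alone and to 35.4 on design A alone, where Stat2 is not measured. The median SD of log2 intensity was 0.18, and 0.086 with 50 added before logarithms, which compresses low readings by construction. The number of probe sets above the floor was 6. It was 5 with a floor at the 60th percentile, 9 at the 20th and 7 with 2 of 3 arrays required. With plain probe sets alone, which leaves out 3 of the 12, it was 4. It lay from 6 to 7 when a replicate was left out. By gene the count was 5, and from 4 to 6 under these alternatives. The share of all probe sets above the floor also shifts when the floor is moved or fewer arrays are required. That share was not computed for these settings, so the counts cannot be set against it. Without replicate 3, Ifit2 was the gene that joined. Of 40 alternatives for single gene positions, 37 moved by less than 1 SD between arrays, and the largest shift was 3.59 percentile points. Most of the 40 left out 1 of the same 3 arrays, where a shift cannot reach 1 SD, so they are no check. The others took the percentile among probe sets with 1 gene symbol. There Isg15 moved from 50.2 to 48.5, Mx1 from 5.30 to 4.74 and Stat2 from 77.3 to 75.4, each by more than 1 SD. The remaining gene values moved by less. The 3 arrays per design, all of 1 condition, limit what any of these values can show.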
